A study of Mus musculus with 44 samples.

Results

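The genes described here are 10 genes of the neuronal cytoskeleton and its usual neighbours in developing neurons, taken by name from 32287 gene identifiers measured in every library: the stathmins Stmn1, Stmn2, Stmn3 and Stmn4, the tubulin Tubb3, the microtubule-associated protein Map2, the intermediate filament genes Nes and Vim, and the growth cone genes Dpysl3 and Gap43. Each symbol belongs to 1 identifier. No measured value was used to choose them, although results of these data were known when the set was drawn up. Their RNA was followed in 44 libraries of 12 groups, 28 of which are libraries of gut cells.

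All embryos came from mCherry+ morulae of CD1/G4 background that were aggregated with GFP+ mouse embryonic stem cells (G4), so that embryonic cells carry GFP and extraembryonic cells carry mCherry. The E6.5 groups were Epi (epiblast, GFP), exEndo 1 (distal extraembryonic endoderm, mCherry) and exEndo 2 (proximal, mCherry), each of 4 libraries from single, manually isolated embryo parts. At E9.5 there were 4 libraries each of YsEndo (yolk sac endoderm, mCherry), of exMidgut and exHindgut (EPCAM+ mCherry+ cells, together exGut) and of emMidgut and emHindgut (EPCAM+ GFP+ cells with a low mCherry signal, together emGut), every library being a pool of 4 embryos. At E13.5 there were 3 libraries each, from single embryos, of emSI and emColon (EPCAM+ GFP+, WT) and of exSI and exColon (EPCAM+ mCherry+, Trp53 KO), where SI is the small intestine. All groups up to E9.5 were WT. Origin therefore goes with the CD1/G4 against the G4 background and with the reporter at every stage, and at E13.5 also with Trp53 genotype, and these cannot be told apart. The emGut cells of E9.5 were those with an mCherry signal and are not all embryonic gut cells. By the study's methods emGut cells are male and extraembryonic cells may be of either sex, and the sorted libraries hold small numbers of cells. Stage goes with the sort gate and with pooling, and the embryos were delayed by the uterine transfer. Nothing in the labels ties a replicate number to a litter or a day, so p-values measure the spread between these libraries.

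Microtubules are polymers of alpha and beta tubulin. Stathmins bind free tubulin dimers and promote disassembly of microtubules, MAP2 binds along microtubules of dendrites, and class III beta tubulin, the product of Tubb3, is the tubulin isotype most used to mark neurons. Nestin and vimentin form intermediate filaments, nestin in neural progenitors and vimentin in mesenchymal and many embryonic cells. DPYSL3, a collapsin response mediator protein (CRMP), and GAP43, a membrane protein, act in growth cones, the motile tips of growing axons. The gut epithelium is not neural, and the neurons of the gut wall descend from neural crest cells that enter it from outside.

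Levels are TPM, a transcript abundance scaled by transcript length and by the library's total. Differences were tested on log2(TPM + 1) with limma over every gene tested, and calls required a log2 difference beyond 1 in either direction together with an adjusted p below 0.05. Between 10382 and 13596 genes lay above 1 TPM in a library, and aligned bases implied by the deposited coverage ran from 3.53 to 12.04 Gb (median 6.80). Libraries of 1 group correlated with each other at 0.843 to 0.996. The epithelial marker Epcam was at 331 TPM or more in all 28 gut libraries. At E9.5 it was at 331 to 417 TPM in emHindgut, below the 479 to 659 TPM of exHindgut. In midgut it was at 791 to 892 TPM in emMidgut and 841 to 1030 TPM in exMidgut. The visceral and yolk sac endoderm markers summed to 5368 to 9668 TPM in exMidgut and 845 to 1289 TPM in emMidgut. Trp53, the gene knocked out in the extraembryonic cells of E13.5 by their label, was at 172, 158 and 201 TPM in emSI, 33.4, 167 and 117 TPM in exSI, 151, 226 and 245 TPM in emColon and 42.5, 124 and 122 TPM in exColon. The groups overlapped in SI and not in colon, and an RNA level does not show whether the protein is lost. In this bulk RNA, fewer cells of a type and less RNA per cell cannot be told apart.

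The 10 genes fell into broad and narrow patterns. Stmn1 was above 1 TPM in all 44 libraries and Vim in 43. Map2, Dpysl3, Nes and Gap43 were above it in 32, 31, 28 and 25 libraries. Stmn2, Stmn3, Tubb3 and Stmn4 were above it in only 12, 9, 6 and 3. Of the 28 gut libraries, 7 had Stmn2 above 1 TPM, 2 had Tubb3, 2 had Stmn4 and 1 had Stmn3. Epi was the broadest group, with 9 of the 10 genes above 1 TPM in every library, against 7 in emMidgut, 6 in emHindgut and exHindgut, 5 in exMidgut and 2 in YsEndo.

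**Figure D1:**
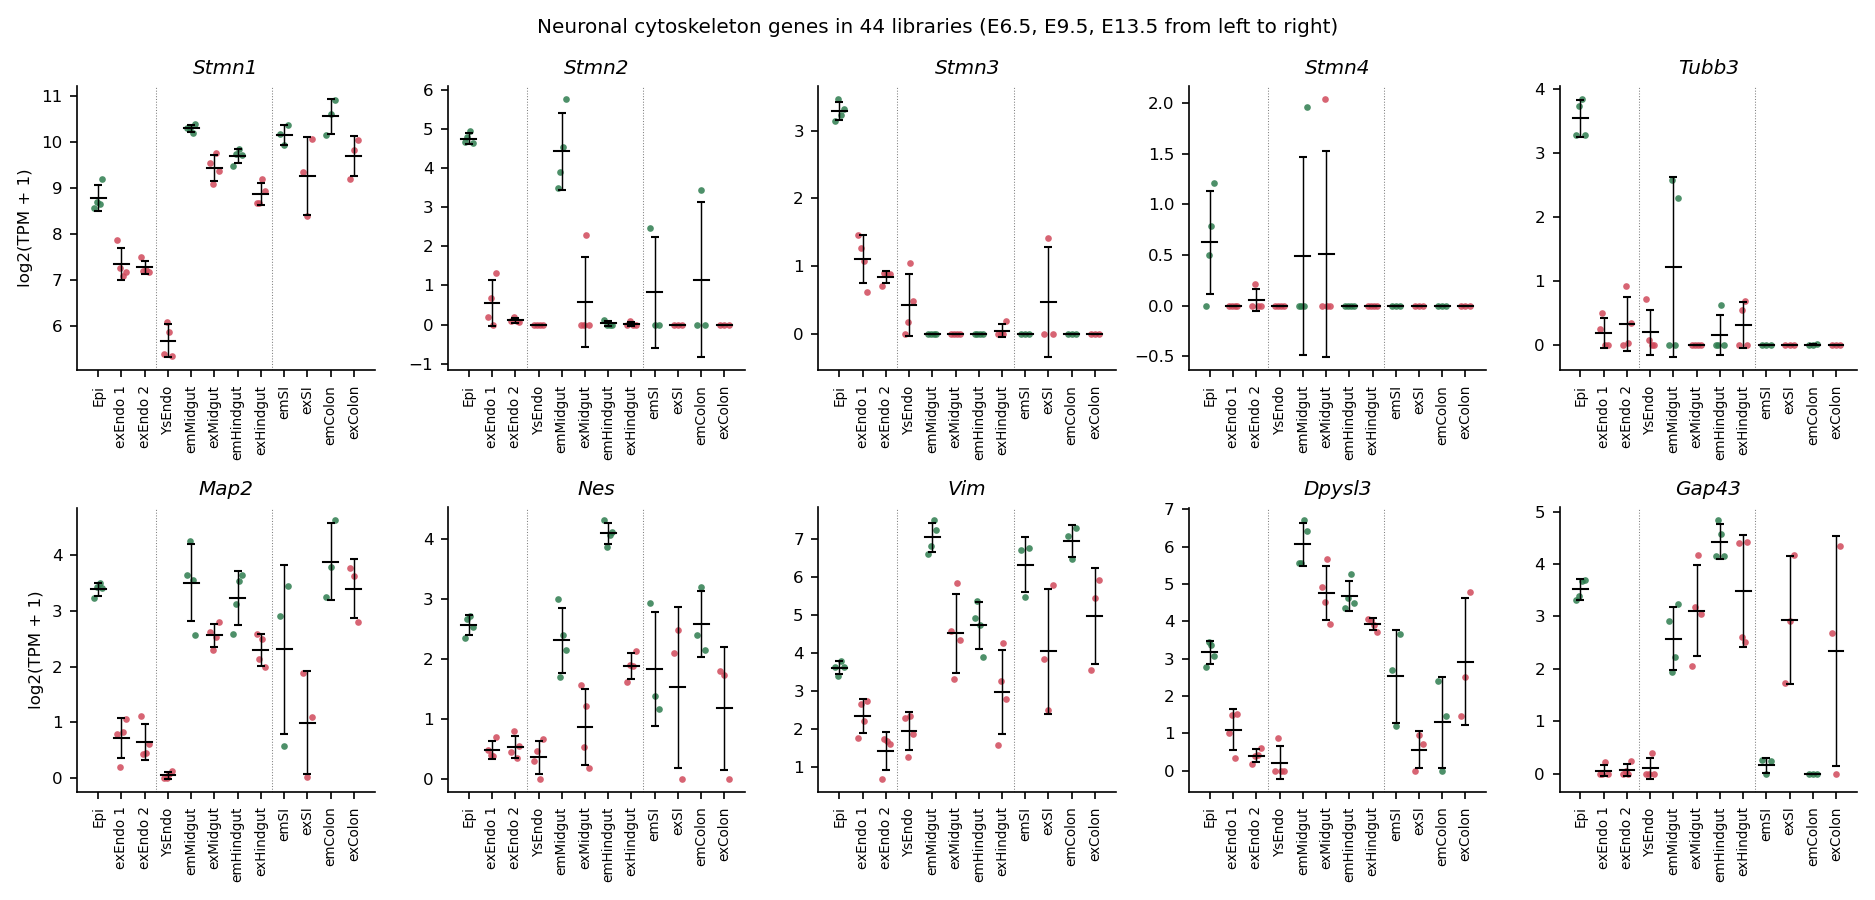
Level of each gene on a log2(TPM + 1) axis in 44 libraries. Points are libraries, black bars the mean and error bars the SD of 3 or 4 libraries per group, with embryonic groups in green and extraembryonic groups in red, and each panel has its own axis. Stmn1 is high in every gut group, while Stmn3 and Tubb3 stand high in the 4 Epi libraries.

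Stmn1 (ENSMUSG00000028832, chr4:134468320-134473843 in mm10, plus strand), the most widely expressed stathmin and one linked to proliferating cells, was the most abundant of the 10 in every library. In midgut its levels were 1264, 1272, 1186 and 1355 TPM in emMidgut and 748, 544, 872 and 668 TPM in exMidgut. In hindgut they were 718, 858, 928 and 848 TPM in emHindgut and 412, 406, 585 and 493 TPM in exHindgut. Within each region every exGut library lay below every emGut library. The log2 difference was -0.86 (SE 0.123) in midgut, with an adjusted p of 0.00102, and -0.83 (SE 0.118) in hindgut, with an adjusted p of 0.00078. Over both regions exGut stood at 56.1% of the emGut mean, with a log2 difference of -0.85 (SE 0.167) and an adjusted p of 0.00489. These differences passed the test but were short of the log2 difference of 1 that a call required. The difference between the midgut and hindgut values was 0.03 (SE 0.183, adjusted p 0.987).

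The same gene at E13.5 was at 1159.6, 984 and 1321 TPM in emSI, at 650.4, 333 and 1070.5 TPM in exSI, at 1146, 1565 and 1938 TPM in emColon, and at 592, 918 and 1062 TPM in exColon. In exColon all 3 libraries lay below the 3 of emColon, whereas in exSI the third library lay within the range of emSI. Over both organs the log2 difference was -0.88 (SE 0.225), close in size to that at E9.5, with an adjusted p of 0.0925, so it was not called. An exact permutation test over the 12 libraries, two-sided and unadjusted, gave p = 0.00866. That test ignored organ and took all libraries as independent, although libraries of both organs and origins may come from the same embryos. Without the third exSI library the log2 difference became -1.06 with an adjusted p of 0.0193.

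Ordered by mean, Stmn1 ran from emColon (1549.9 ± 396 TPM, SD, n = 3) through emMidgut (1269 ± 69.2, n = 4) and emSI (1155 ± 169, n = 3) down to exHindgut (474 ± 83.8, n = 4), Epi (447 ± 96.8, n = 4), exEndo 1 (166 ± 45.1, n = 4), exEndo 2 (154 ± 16.6, n = 4) and YsEndo (51.3 ± 13.2, n = 4). Neighbours in this order overlapped, except that all Epi libraries lay above exEndo 1 and all exEndo 2 libraries above YsEndo. The 8 exGut libraries all lay above the 4 of YsEndo, and exGut exceeded YsEndo by 3.49 log2 units (SE 0.209).

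Stmn2 (ENSMUSG00000027500, chr3:8509360-8561606, plus strand), a stathmin of axons and growth cones, was restricted among E9.5 gut libraries to midgut. It stood at 10.3, 13.96, 22.4 and 53.5 TPM in emMidgut, and in exMidgut at 3.90 TPM in replicate 3 and 0 in the other 3 libraries. In hindgut no library exceeded 0.0881 TPM. The midgut difference of -3.86 (SE 0.607, adjusted p 0.00233) was called. Every emMidgut library lay above every exMidgut library. Stmn2 passed the filter on low values through emMidgut, so the direction was largely set by that filter. The origin difference changed with region by 3.85 (SE 0.729, adjusted p 0.0379), a call that was lost without 14 of the 16 libraries taken singly, with adjusted p then between 0.0548 and 0.0940, and kept only without emMidgut replicate 1 or exMidgut replicate 3. With both regions together the difference was -1.93 (SE 0.812, adjusted p 0.227). Without the emMidgut replicates 1 and 3, which had 224 and 183 TPM of the germ cell gene Dppa3, Stmn2 no longer passed the filter on low values. In Epi it was at 24.5, 26.6, 29.7 and 23.8 TPM, close to its emMidgut mean, and at E13.5 it was above 0 in 2 of 12 libraries, with 4.52 TPM in emSI replicate 1 and 9.87 TPM in emColon replicate 2.

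Stmn3 (ENSMUSG00000027581, chr2:181306459-181314500, minus strand) and Stmn4 (ENSMUSG00000022044, chr14:66344296-66361680, plus strand), neural stathmins attached to membranes, were near the limit of detection in gut. Stmn3 was at 7.86, 10.1, 8.41 and 8.99 TPM in Epi, at 0.542 to 1.75 TPM in exEndo 1, and at 0 in 26 of the 28 gut libraries, the others having 0.145 TPM in exHindgut replicate 4 and 1.67 TPM in exSI replicate 2. Stmn4 was above 1 TPM in 1 emMidgut library (2.89), 1 exMidgut library (3.11) and 1 Epi library (1.32), and was at 0 in 38 of 44. Neither passed the filter in any gut comparison, so their origin difference was not tested.

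Tubb3 (ENSMUSG00000062380, chr8:123411424-123422015, plus strand) was at 8.72, 12.3, 13.3 and 8.73 TPM in Epi. Among gut libraries only emMidgut replicates 2 and 4 exceeded 1 TPM, with 4.95 and 3.90. Their fellow replicates 1 and 3 were at 0. All 4 exMidgut libraries were also at 0, and no hindgut library was above 0.606 TPM. It was not tested in the gut.

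Map2 (ENSMUSG00000015222, chr1:66175273-66442583, plus strand) was present in gut of both origins at a lower level in exGut. Its levels were 11.6, 18.01, 10.8 and 4.93 TPM in emMidgut and 5.18, 3.93, 4.76 and 5.96 TPM in exMidgut. They were 4.97, 7.76, 10.7 and 11.49 TPM in emHindgut and 5.00, 3.39, 4.64 and 2.96 TPM in exHindgut. The lowest emGut library of each region overlapped exGut, and 5 of 8 exGut libraries lay below all emGut libraries. The log2 difference was -0.93 over both regions (SE 0.252), with an adjusted p of 0.0457 that left it under the log2 difference of a call. By region it was -0.94 (SE 0.398, adjusted p 0.244) and -0.92 (SE 0.346, adjusted p 0.152). The antisense gene Gm10558 overlaps 6521 bases of Map2 and reached 3.36 TPM. The libraries do not keep the strand, so reads from that stretch cannot be told apart.

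The promoters of Map2, Nes and Vim are shown because Nes and Vim were called in the pooled E9.5 comparison and Map2 passed its adjusted p there, short of the log2 difference of a call. They come from the RefSeq promoter table for GRCm38.p6 (the build also called mm10), which held 5 of the 10 genes (Stmn3, Tubb3, Map2, Nes and Vim). The 250 bases before each start were searched on both strands for 3 motifs. TATAAA is held by 12.4% of all 32851 promoters, CCAAT by 33.8% and GGGCGG by 32.7%, and no match of 1 motif overlapped a match of another in the 3 windows described. Only bases outside annotated exons are printed for Map2 (chr1:66175079-66175272) and Nes (chr3:87970843-87971077), and for Vim 30 bases around TATAAA that lie inside an annotated exon (chr2:13574267-13574296), all on the plus strand. Capitals mark matches.
Map2: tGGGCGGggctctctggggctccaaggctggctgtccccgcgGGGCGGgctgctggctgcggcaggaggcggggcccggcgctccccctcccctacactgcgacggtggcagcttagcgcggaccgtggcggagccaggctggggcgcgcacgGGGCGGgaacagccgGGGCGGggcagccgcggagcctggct
Nes: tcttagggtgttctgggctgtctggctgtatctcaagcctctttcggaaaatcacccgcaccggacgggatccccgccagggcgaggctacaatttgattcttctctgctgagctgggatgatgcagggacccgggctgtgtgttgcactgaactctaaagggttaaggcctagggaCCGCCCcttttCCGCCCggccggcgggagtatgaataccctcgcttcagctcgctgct
Vim: tcctaacagtgtTATAAAagcagcgccctt
The Map2 window held 5 forward GGGCGG (1 of them beyond the printed part) and was 81.2% G or C, against a median of 52.4% over all promoters. The Nes window held 2 on the reverse strand, 73 and 62 bases before the start, and no TATAAA. The Vim window held TATAAA 32 bases before the start and no GGGCGG. These are matches of letters and a description of the windows.

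Nes (ENSMUSG00000004891, chr3:87971078-87980451, plus strand) fell in exGut and was highest in emHindgut. Its levels were 18.8, 13.6, 15.8 and 16.3 TPM in emHindgut and 2.05, 2.74, 2.702 and 3.36 TPM in exHindgut. In midgut they were 6.98, 2.25, 4.27 and 3.42 TPM in emMidgut and 1.96, 0.440, 1.31 and 0.133 TPM in exMidgut. In both regions the groups were fully separate. The hindgut difference of -2.21 (SE 0.295, adjusted p 0.000445) and the pooled one of -1.82 (SE 0.417, adjusted p 0.0157) were called, and the midgut one of -1.44 (SE 0.495, adjusted p 0.141) was not. The difference between the regions was not called (-0.77, SE 0.530, adjusted p 0.806). The pooled call held without each of the 16 libraries, with adjusted p between 0.0056 and 0.0389. At E13.5 Nes was at 6.59, 1.62 and 1.25 TPM in emSI and 3.27, 4.61 and 0 TPM in exSI, and at 4.24, 8.16 and 3.44 TPM in emColon and 2.47, 2.31 and 0 TPM in exColon. The groups overlapped in SI and were separate in colon, and the log2 difference over both organs was -0.85 (SE 0.608, adjusted p 0.654).

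The summed neural tube markers stood higher in emHindgut as well. Their sum over 8 genes was 109.9 to 190 TPM in emHindgut, 19.2 to 103 TPM in exHindgut, 1.81 to 16.4 TPM in emMidgut and 6.88 to 20.02 TPM in exMidgut. In hindgut 1 of the 3 markers tested was called lower in exGut, against 1.70% of all genes. Fabp7, a fatty acid binding protein of neural progenitors named after its values were seen, averaged 108 TPM in emHindgut and 26.5 TPM in exHindgut. It held most of the emHindgut sum. Sox2 overlapped between origins, at 11.7 to 24.5 TPM in emHindgut and 12.6 to 26.7 TPM in exHindgut. Hes5 also overlapped, at 8.64 to 16.5 TPM in emHindgut and 0 to 30.8 TPM in exHindgut. Olig2 was at 0 in every library of these 4 groups. The part of these cells in the Nes level was not tested.

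Vim (ENSMUSG00000026728, chr2:13573927-13582826, plus strand) fell in exGut in both regions. Its levels were 96.4, 112, 177 and 148 TPM in emMidgut and 22.7, 8.92, 56.1 and 19.1 TPM in exMidgut, where no library reached the lowest of emMidgut. In hindgut they were 29.0, 39.8, 25.6 and 13.7 TPM in emHindgut and 1.98, 8.50, 17.999 and 5.84 TPM in exHindgut, so that 3 of 4 exHindgut libraries lay below all of emHindgut. The difference was -2.52 in midgut (SE 0.393, adjusted p 0.00218) and -1.76 in hindgut (SE 0.470, adjusted p 0.0431), both called. The change of the origin difference with region was 0.77 (SE 0.684, adjusted p 0.869). The hindgut call was lost without emHindgut replicate 1, 2 or 3 or exHindgut replicate 1, 2 or 4 (adjusted p 0.0635 to 0.131). The pooled difference of -2.14 (SE 0.578, adjusted p 0.0458) was called but lost without 12 of the 16 libraries taken singly, namely each emMidgut and exHindgut library, exMidgut replicates 1, 2 and 4 and emHindgut replicate 2 (adjusted p 0.0501 to 0.0870).

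At E13.5 Vim was at 104, 43.5 and 107 TPM in emSI and 13.3, 4.65 and 53.5 TPM in exSI, and at 134, 88.0 and 154 TPM in emColon and 10.6, 42.1 and 59.5 TPM in exColon. The groups overlapped in SI and were separate in colon. The log2 difference was -2.13 (SE 0.494), of the same size as at E9.5, with an adjusted p of 0.0571, and it was not called. The exact two-sided permutation test, unadjusted and ignoring organ and embryo, gave p = 0.00649. Without exSI replicate 3 it was -2.50 (adjusted p 0.0116) and without exColon replicate 3 it was -2.36 (adjusted p 0.0486), and both were then called.

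Mesenchyme, where Vim is abundant, was followed through 10 marker genes. In midgut their sums overlapped between origins, at 11.7 to 20.7 TPM in emMidgut and 6.29 to 21.1 TPM in exMidgut. Of the 10 markers, 5 had a mean above 1 TPM in emMidgut and 3 in exMidgut. Twist1, Foxf1 and Tbx18 were at 0 in every emMidgut library, and Twist2 was at 0 in every exMidgut library. None of the 4 markers tested in midgut was called by origin, and the part of these cells in the midgut Vim value was not tested. In hindgut the sum was 55.7 to 83.7 TPM in emHindgut and 26.0 to 34.3 TPM in exHindgut. There 3 of 7 markers tested were called lower in exHindgut, against 1.70% of all genes. The part of these cells in the hindgut Vim value was not tested. At E13.5 the sum was 440 TPM in emSI replicate 1, 116 TPM in replicate 2 and 1.93 TPM in replicate 3, where the collagen gene Col3a1 was at 0 and Vim at 107 TPM. The sum was at most 1.25 TPM in exSI, 6.49 to 12.4 TPM in emColon and 1.85 to 10.999 TPM in exColon. Without emSI replicates 1 and 2 the E13.5 Vim difference was -2.23 (adjusted p 0.168).

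**Figure D2:**
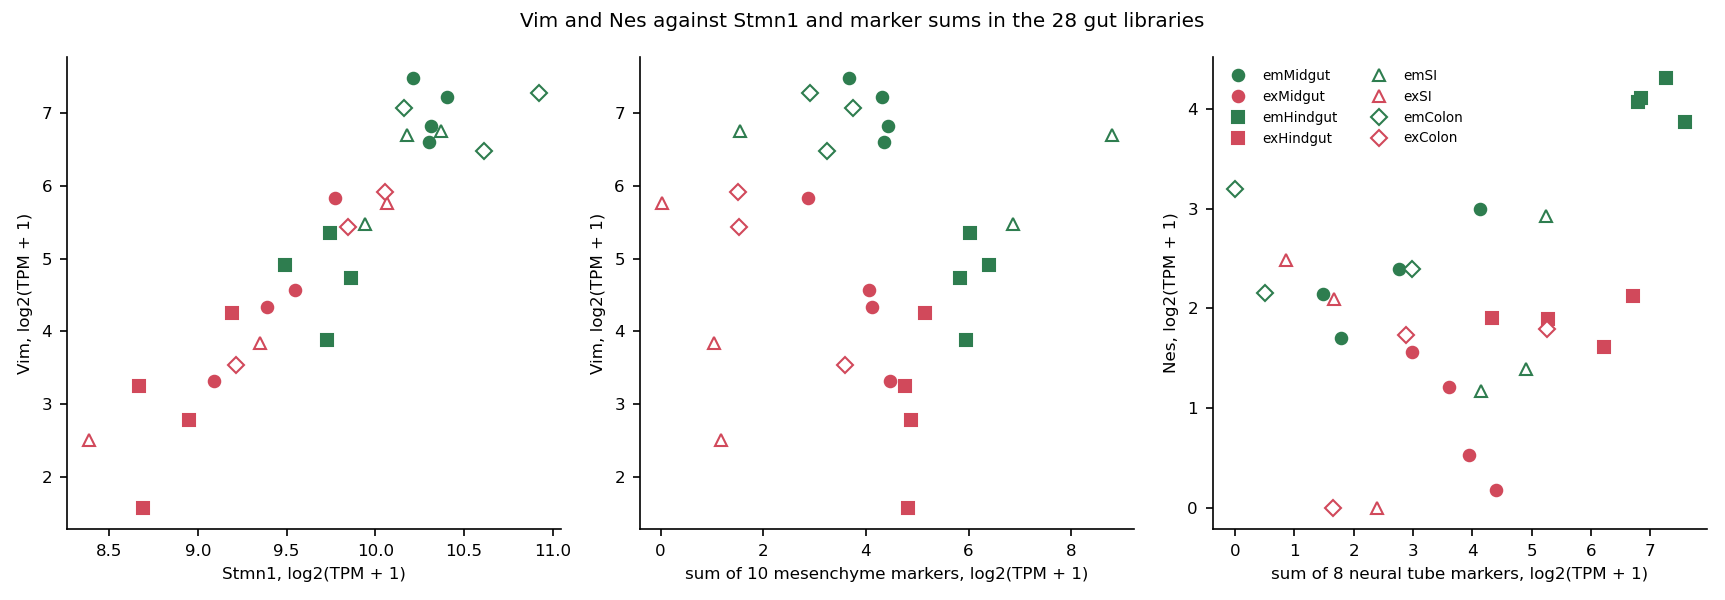
Vim against Stmn1 (left) and against the sum of 10 mesenchyme markers (middle), and Nes against the sum of 8 neural tube markers (right), each on a log2(TPM + 1) axis, with 1 point per gut library, embryonic in green and extraembryonic in red, filled at E9.5 and open at E13.5. Vim follows Stmn1 over the 28 libraries (Pearson's r 0.933).

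Vim and Stmn1 went together across the 28 gut libraries, with a Pearson's r of 0.933 on log2(TPM + 1). The points share stage, region and origin within each group, so this is a description of the libraries. Over the same libraries Stmn1 had an r of 0.571 with Map2, 0.496 with Stmn2, 0.200 with Tubb3, 0.0878 with Nes, 0.0596 with Dpysl3, 0.0018 with Stmn4, -0.44 with Gap43 and -0.45 with Stmn3.

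Dpysl3 (ENSMUSG00000024501, chromosome 18, minus strand) was above 1 TPM in all 16 gut libraries of E9.5. Its levels were 46.3, 46.2, 103 and 84.4 TPM in emMidgut and 29.5, 21.8, 49.9 and 14.3 TPM in exMidgut. They were 19.7, 23.7, 37.5 and 21.6 TPM in emHindgut and 15.7, 15.6, 13.9 and 12.1 TPM in exHindgut. The hindgut groups were separate, and in midgut the third exMidgut library lay within the emMidgut range. No origin difference was called: -1.30 in midgut (SE 0.350, adjusted p 0.0583), -0.76 in hindgut (SE 0.244, adjusted p 0.0924) and -1.03 over both (SE 0.350, adjusted p 0.125). Without exMidgut replicate 3 the midgut difference was called with an adjusted p of 0.0164, and with region as a covariate the pooled one was called with an adjusted p of 0.00539.

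By E13.5 Dpysl3 had fallen in the embryonic libraries to 5.55, 1.29 and 11.7 TPM in emSI and 4.32, 0 and 1.78 TPM in emColon, all below the lowest E9.5 emGut library. The difference from E9.5 was -3.47 (SE 0.422, adjusted p 2.9e-05). At E13.5 its origin difference pointed opposite ways in the organs. It was at 0 to 0.925 TPM in exSI, below all of emSI, and at 1.76, 4.71 and 26.7 TPM in exColon. The interaction of origin and organ was 3.597 (SE 1.35, adjusted p 0.509) and was not called.

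Gap43 (ENSMUSG00000047261, chr16:42248442-42340651, minus strand) had a pattern of its own. At E9.5 its levels were 6.52, 2.85, 3.65 and 8.43 TPM in emMidgut, 3.16, 8.02, 17.0 and 7.26 TPM in exMidgut, 16.7, 27.5, 22.8 and 16.8 TPM in emHindgut, and 19.98, 5.10, 4.70 and 20.3 TPM in exHindgut. The groups of both origins overlapped, and the pooled log2 difference was -0.21 (SE 0.460, adjusted p 0.880). At E13.5 it was nearly absent from embryonic cells, at 0.191, 0 and 0.174 TPM in emSI and 0 in all 3 emColon libraries. In extraembryonic cells it was at 2.30, 6.48 and 17.1 TPM in exSI and 5.40, 0 and 19.4 TPM in exColon, so that 5 of 6 extraembryonic libraries lay above all embryonic ones. That difference was 2.56 (SE 0.659) with an adjusted p of 0.0950 and was not called. The exact two-sided permutation test, unadjusted and ignoring organ and embryo, gave p = 0.0152. It was called without exColon replicate 2, the library at 0, with 3.10 and an adjusted p of 0.0134. At E13.5 Gap43 passed the filter on low values through the extraembryonic libraries alone. The direction of this origin difference was therefore largely set by that filter. From E9.5 to E13.5 the embryonic level fell by 3.42 log2 units (SE 0.397, adjusted p 1.8e-05). In that comparison Gap43 was above 1 TPM in no E13.5 library. It passed the filter on low values through the E9.5 libraries alone, so the direction was largely set by that filter.

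Read together for exGut against emGut, 7 of the 10 genes were above 1 TPM in enough libraries to be tested, and 2 of the 7, Nes and Vim, were called lower. Over all 13473 genes tested 2.35% were called, 1.27% lower. All 7 values were below 0, and their median was -1.03 against -0.03 over all genes tested. Stmn2 was above 1 TPM in all 4 emMidgut libraries, in 1 exMidgut library and in no hindgut library. It was tested here, in midgut and in the interaction because emMidgut was high, so its direction is no separate support. In exMidgut against emMidgut 2 of 7 were called, both lower (Stmn2 and Vim), against 2.58% of all genes called and 1.35% called lower, and Stmn1, Stmn2, Nes and Vim did not overlap between groups, as was the case for 10.3% of all genes. In exHindgut against emHindgut 2 of 6 were called, both lower (Nes and Vim), against 3.07% of all genes called and 1.70% called lower, and Stmn1, Nes and Dpysl3 did not overlap, against 11.9%. Stmn2, as above, was the 1 of 7 for which the origin difference changed with region, against 0.0965% of all genes called in that interaction. At E13.5 none of the 6 genes tested was called over both organs, where 0.625% of all genes were called and 11.3% had an unadjusted p under 0.05. Stmn1, Vim and Gap43 were the members of that kind, with Gap43 passing the filter through extraembryonic libraries, so its direction is no separate support. None was called in the interaction with organ either (limma, 0.0160% of all genes called and 8.32% at an unadjusted p under 0.05, Dpysl3 among them). The pooled and regional comparisons share their libraries, as do those with YsEndo and between stages that use exGut or emGut, and their values are not independent.

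**Figure D3:**
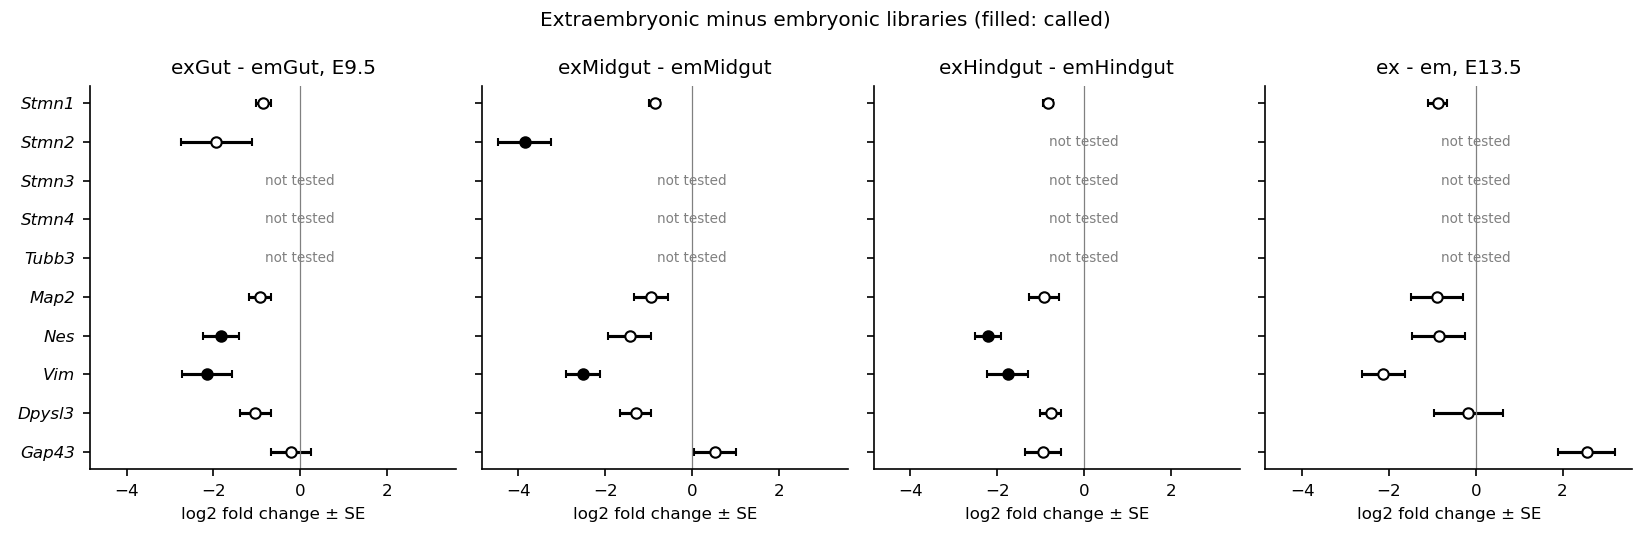
Log2 difference (extraembryonic minus embryonic libraries) with its standard error for the 10 genes, in exGut against emGut (8 libraries each), midgut and hindgut at E9.5 (4 each) and both organs at E13.5 (6 each). Filled points were called. Stmn1, Map2, Nes and Vim lie below 0 in all panels, and Gap43 lies at 2.56 at E13.5.

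The other 38 genes of the lists around these 10 were counted by family. Of 15 neuronal tubulins, microtubule-associated proteins and motors, 12 were tested in exGut against emGut and 1 fell, the beta tubulin Tubb4a (-1.62, SE 0.319, adjusted p 0.00465). Of 9 growth cone and membrane cytoskeleton genes all were tested and 2 fell, Tagln3 (-2.76, SE 0.561, adjusted p 0.00637) and the adhesion molecule Ncam1 (-2.48, SE 0.650, adjusted p 0.0387). Among exGut libraries Tagln3 was above 1 TPM only in exHindgut replicate 1 (4.23 TPM). It passed the filter on low values through emGut, so its direction was largely set by that filter. None of 5 intermediate filament genes tested was called. The medians of the 3 lists were -0.45, -0.29 and 0.16, and 1.27% of all genes tested were called lower. By region Ank2, an ankyrin that anchors membrane proteins to spectrin, rose in exHindgut (1.38, SE 0.275, adjusted p 0.00952), the only gene of these lists called higher in extraembryonic cells at E9.5.

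The alpha tubulin gene Tuba1a was singled out after its values were seen. It is the alpha tubulin of young neurons and was at 2224 to 2909 TPM in emGut and 1204 to 1524 TPM in exGut, with no overlap. Its log2 difference of -0.90 (SE 0.0693, adjusted p 6.2e-08) was, like that of Stmn1, too small for a call. At E13.5 it fell by 1.06 (SE 0.158, adjusted p 0.00125), the only gene of the 4 lists called there.

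The CRMP family, to which Dpysl3 belongs, was also looked at whole after its values were seen. All 4 relatives were tested and 3 fell in exGut, namely Dpysl2 by 1.40 (SE 0.135, adjusted p 1.8e-06), Crmp1 by 1.30 (SE 0.305, adjusted p 0.0178) and Dpysl5 by 1.17 (SE 0.270, adjusted p 0.0162). Among exGut libraries Crmp1 was above 1 TPM only in exHindgut replicate 2 (1.42 TPM). It passed the filter on low values through emGut, so its direction is no separate support. Dpysl2, which binds tubulin dimers, was at 128 to 201 TPM in the 8 emGut libraries and 48.0 to 84.1 TPM in the 8 exGut libraries, so that the origins were separate in both regions. Dpysl4 was at 5.99 to 11.7 TPM in emGut and 0.495 to 11.3 TPM in exGut (-1.08, SE 0.369, adjusted p 0.128), and fell in hindgut (-1.84, SE 0.434, adjusted p 0.0237). The family's median was -1.24. Over all genes tested in exGut against emGut 2.35% were called and 1.27% were called lower. At E13.5 no member tested was called by origin, with Dpysl2 at -0.47 (SE 0.327, adjusted p 0.640).

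**Figure D4:**
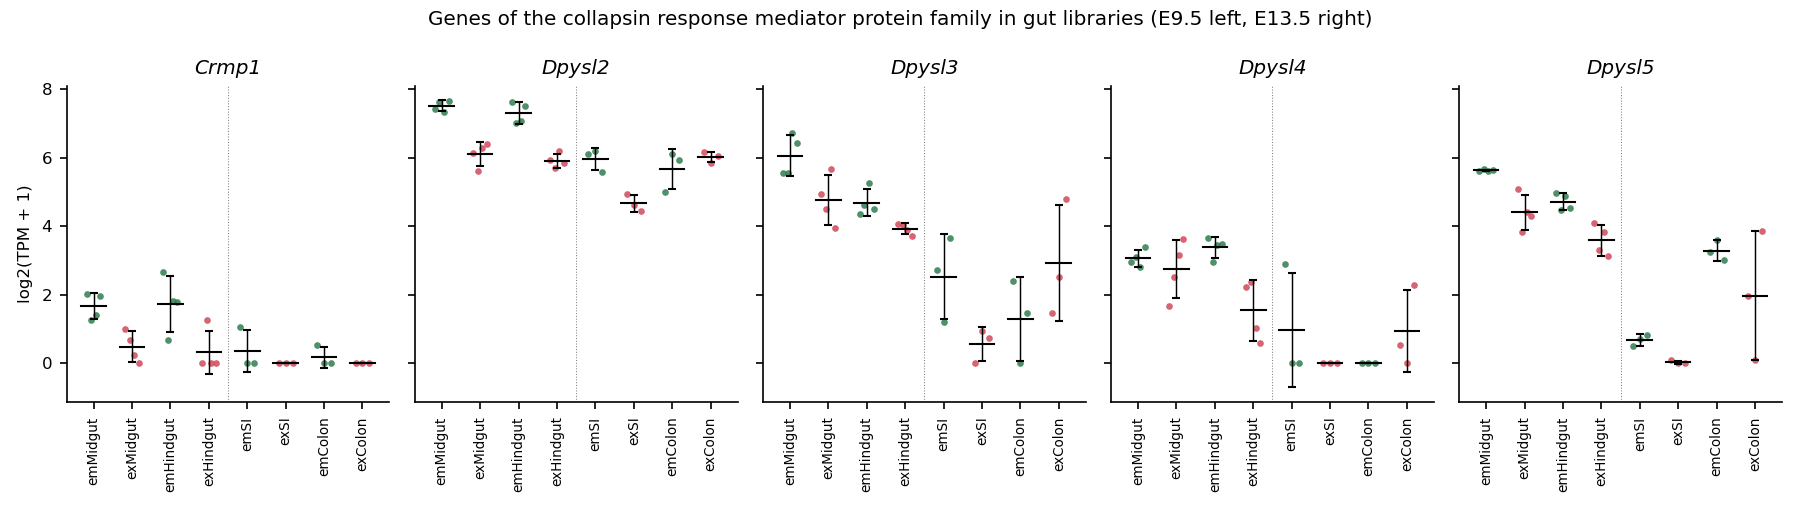
The 5 genes of the CRMP family in the 28 gut libraries, on a log2(TPM + 1) axis with points, means and SD drawn as in the plot of all 10 genes (4 libraries per group at E9.5, 3 at E13.5). Dpysl2 lies at 128 to 201 TPM in emGut and 48.0 to 84.1 TPM in exGut at E9.5, and the embryonic groups of all 5 genes are lower at E13.5.

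Region was a second axis. In emHindgut against emMidgut 5 of 7 genes tested were called, against 13.9% of all genes called, 5.24% higher and 8.61% lower, and 26.0% whose groups did not overlap. Nes (1.78, SE 0.326, adjusted p 0.000973) and Gap43 (1.85, SE 0.334, adjusted p 0.000876) were higher in hindgut, with no overlap of groups. Stmn2 (-4.40, SE 0.455), Vim (-2.31, SE 0.270) and Dpysl3 (-1.37, SE 0.273) were lower, again with no overlap. Of these, Stmn2 was above 1 TPM in no emHindgut library and passed the filter on low values through emMidgut alone. Stmn1 was 0.60 lower in hindgut (SE 0.0892, adjusted p 0.00017), short of a call. The epithelial keratin genes Krt8, Krt18 and Krt19, which like Vim are intermediate filament genes, also fell in hindgut, by 1.45, 1.80 and 1.60 (adjusted p 3e-07, 1.8e-07 and 1.2e-06). Of 7 mesenchyme markers tested, 5 were called higher in emHindgut, and their part in the Vim value was not tested. Of 8 endoderm epithelium markers, Krt8 and Krt18 among them, 7 were called lower in emHindgut. The part of such cells in the region values was not tested.

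Among extraembryonic libraries the region difference was called for none of the 6 genes tested, where 11.3% of all 12331 genes were called by limma and 30.6% had an unadjusted p under 0.05, 4 of the 6 among them. Nes was the 1 gene of the 6 whose groups did not overlap, which held for 21.2% of all genes. Stmn1 was 0.57 lower in exHindgut (SE 0.148, adjusted p 0.0153), Vim stood at -1.55 (SE 0.568, adjusted p 0.0773), Nes at 1.01 (SE 0.460, adjusted p 0.153) and Gap43 at 0.37 (SE 0.541, adjusted p 0.697). Vim was called without exMidgut replicate 2 or exHindgut replicate 3 (adjusted p 0.0338 and 0.0298), and Dpysl3 without exMidgut replicate 4 (adjusted p 0.0292).

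Against YsEndo, the other mCherry-marked endoderm at E9.5, exGut had more RNA of all 6 genes tested, each called higher, where 42.4% of all genes were called and 32.3% were called higher. Map2, Nes, Dpysl3 and Gap43 were above 1 TPM in no YsEndo library. They passed the filter on low values through exGut alone, so their direction was largely set by it. Of all genes 43.5% did not overlap. The median over all genes was itself 0.59, or 0.08 after median-ratio rescaling. Dpysl3 (4.13, SE 0.358), Stmn1 (3.49, SE 0.209), Gap43 (3.195, SE 0.446) and Map2 (2.38, SE 0.242) did not overlap between the groups. Vim (1.81, SE 0.598, adjusted p 0.0172) and Nes (1.02, SE 0.378, adjusted p 0.0301) did, and both lost the call after rescaling (1.34 and 0.81, adjusted p 0.0653 and 0.0658). Nes also lost it without 8 of the 12 libraries taken singly, those of YsEndo 1, 2 and 3, exMidgut 1 and exHindgut 1 to 4, its value then being under 1 or its adjusted p up to 0.103. Vim lost it without YsEndo replicate 2 (adjusted p 0.0582). YsEndo held Map2 at 0 to 0.0988 TPM and Stmn2 and Stmn4 at 0.

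At E6.5 these genes were higher in Epi than in the extraembryonic endoderm. In exEndo 1 against Epi 9 of 10 were tested, and all 9 were called lower with no overlap of groups. Tubb3, Nes and Gap43 were above 1 TPM in no exEndo 1 library, and Stmn2 and Map2 in 1. These genes passed the filter on low values through Epi, so their direction was largely set by it and is no separate support. Of all genes 33.4% were called, 13.6% lower, and 56.6% did not overlap. The largest differences were those of Stmn2 (-4.21, SE 0.262), Gap43 (-3.46, SE 0.160) and Tubb3 (-3.35, SE 0.197), and the smallest those of Stmn1 (-1.44, SE 0.191) and Vim (-1.27, SE 0.223). Gap43 was at 8.89, 9.45, 11.7 and 11.98 TPM in Epi and at 0 to 0.162 TPM in exEndo 1. Vim was at 11.4, 9.42, 12.8 and 11.4 TPM in Epi and 2.40, 5.23, 3.62 and 5.68 TPM in exEndo 1. The neuronal gene Elavl3 was at 7.42 to 10.1 TPM in Epi, while it was at most 0.179 TPM in gut. Of the wider lists, 11 of 14 tubulin, associated protein and motor genes, 3 of 3 CRMP genes and 6 of 8 growth cone genes fell in exEndo 1, and Krt8, Krt18 and Krt19 were the 3 filament genes that rose. Tubb4a, Map1a, Map6, Dclk1, Dclk2, Kif5a, Kif1a, Kif21b, Crmp1, Tagln3 and Ncam1 were above 1 TPM in no exEndo 1 library. These too passed the filter on low values through Epi, so their direction was largely set by it.

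Between the parts of the extraembryonic endoderm only Stmn1 and Vim passed the filter, and neither was called in exEndo 1 against exEndo 2 (6.41% of all 11414 genes called by limma, 28.7% at an unadjusted p under 0.05 and 19.6% with no overlap, Vim among both). Stmn1 differed by 0.07 (SE 0.163, adjusted p 0.808). Vim was higher in all 4 exEndo 1 libraries than in exEndo 2 (0.600, 2.33, 2.19 and 2.01 TPM) by 0.92 (SE 0.297, adjusted p 0.0633), and passed without exEndo 1 replicate 1 (1.11, adjusted p 0.0333). The sum of 5 epiblast markers was 41.2 to 345 TPM in exEndo 1, 0.241 to 9.31 TPM in exEndo 2 and 1983 to 2665 TPM in Epi. Its part in the Vim value was not tested.

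From E9.5 to E13.5 in embryonic gut, 2 of the 7 genes tested were called, Dpysl3 and Gap43 as given above, both lower and with no overlap of stages. Gap43 passed the filter on low values through the E9.5 libraries alone, so its direction is no separate support. Of all genes 20.4% were called, 17.5% lower, 8.28% did not overlap, and the median was -0.46 (-0.20 after median-ratio rescaling). Stmn1 (0.36, SE 0.164, adjusted p 0.103), Vim (0.75, SE 0.442, adjusted p 0.198) and Map2 (-0.27, SE 0.497, adjusted p 0.703) stood above that median and were not called. Nes stood at -0.995 (SE 0.379, adjusted p 0.0549). Without emSI replicates 1 and 2 Nes (-1.39, adjusted p 0.0123) and Vim (1.43, adjusted p 0.0172) were called, and Vim also without emSI replicate 2 alone (1.12, adjusted p 0.0455). Nes was called without emMidgut replicate 2, emSI replicate 1 or emColon replicate 2 (adjusted p 0.0413, 0.0102 and 0.0494), and Stmn2 without emColon replicate 2 (-2.04, adjusted p 0.0260). In the wider lists all 4 CRMP genes, 5 of 9 growth cone genes and 3 of 12 tubulin, associated protein and motor genes fell. The largest were Map1b, which binds microtubules in growing axons (-3.74, SE 0.368), Dpysl5 (-3.19, SE 0.491) and Ncam1 (-2.95, SE 0.772). Among embryonic libraries of E13.5, the CRMP genes Crmp1 and Dpysl4 were above 1 TPM only in emSI replicate 1. They passed the filter on low values through E9.5, so their direction was largely set by it. Between emColon and emSI none of the 5 genes tested was called (0.472% of all 11239 genes called by limma, 10.5% at an unadjusted p under 0.05, none of the 5).

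Markers of other cell types were followed as lists. Sox10, a gene of neural crest cells, was at 0 in 27 of 28 gut libraries and at 1.22 TPM in the other. Elavl3, a gene of neurons, was at 0 in 21 and at most 0.179 TPM. The sum of 10 neural crest and enteric markers was 15.3 to 58.2 TPM across the E9.5 gut groups and overlapped between origins in both regions, with 4 of the 10 above a mean of 1 TPM in each of these groups. The sum of 8 neuronal markers was 169 to 249 TPM in emHindgut and 79.1 to 207 TPM in exHindgut, against 8.60 to 60.3 TPM in emMidgut and 8.68 to 89.3 TPM in exMidgut. Of these 8, 3 had a mean above 1 TPM in emHindgut, 2 in exHindgut, 2 in emMidgut and 1 in exMidgut. Of the 6 endothelial markers none was tested in gut at E9.5, and their sum was 26.4 and 7.96 TPM in emMidgut replicates 1 and 3 and at most 0.493 TPM in the other midgut libraries. The 9 enteroendocrine markers summed to 43.3 TPM in emMidgut replicate 2, the library with the highest Map2 and Tubb3 levels of the midgut, and to at most 1.695 TPM in the other midgut libraries. The part of these cells in the E9.5 values was not tested. The enteroendocrine markers summed to 18.1 to 424 TPM in emSI and to at most 1.37 TPM in the other E13.5 groups, and their part in the E13.5 values was not tested.

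The genes whose levels over all 44 libraries were most like each of these, among 14686 genes compared by Pearson's r on log2(TPM + 1), were Flywch2 (0.950), Hist3h2ba (0.939) and H2afv (0.935) for Stmn1, and Cdk5rap2 (0.874), Syt5 (0.868) and Flywch2 (0.856) for Vim. For Dpysl3 they were Map1b (0.914), Mapk8ip1 (0.913) and Ppme1 (0.895). For Map2 the closest was Ssbp2 (0.898), for Stmn2 Aff3 (0.893), for Gap43 Thbs3 (0.850), for Nes Camk2g (0.791), for Stmn3 Tmprss12 (0.927) and for Tubb3 Atp2a1 (0.914). Libraries of 1 group share tissue and stage, so these values order genes by likeness and have no test.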

How the data were processed

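RNA of the 44 libraries was prepared by the authors with a low-input form of the Smart-RRBS protocol, in which poly(A) RNA is converted to full-length cDNA without keeping the strand. Per the labels and the study's methods, reads were trimmed with cutadapt (4.1), aligned with STAR (2.7.9a) to mm10 with added GFP and mCherry sequences, and quantified with StringTie (2.0.6) against GENCODE VM23 genes. The authors deposited TPM, FPKM and coverage for each gene. TPM sums to 1e+06 per library, so a level is relative to all RNA of a library. FPKM served as an alternative, and coverage gave the depth: 1 TPM corresponds to 1.86 to 6.89 reads per base, but counts are unknown and no count model was used. Rows were summed per gene identifier. Of 32287 identifiers 32235 matched GENCODE vM21, used here for types and positions, 50 did not and 2 are transgenes.

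Protein-coding genes off the Y chromosome and above 1 TPM in at least 4 libraries of a comparison (3 at E13.5) were tested on log2(TPM + 1) with limma 3.58.1 in R 4.3.3 (eBayes with trend, two-sided, Benjamini-Hochberg over all genes tested). A fold on this scale understates changes of low genes. The organ at E13.5, and the position along the gut in the comparison of stages, were covariates. Interactions had no threshold of size. Exact permutation tests, two-sided, were run for each of the 10 genes, with libraries shuffled freely over region, organ and embryo. The smallest p is 0.0286 for 4 against 4 libraries and 0.00216 for 6 against 6. Code was tested on simulated data. Other values came from Python 3.11.15, NumPy 2.4.6 and pandas 2.3.3.

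The 10 genes, the wider lists and the markers were chosen with earlier results of these data known. All 10 were named in every comparison, of the wider lists at most 3 called genes per direction, and for likeness the 3 genes with the highest r. Alternatives were a pseudocount of 0.1, no filter, FPKM, median-ratio rescaling, no trend, covariates, a replicate block, each library left out, and, added after the data were seen, libraries with high Dppa3 or collagen left out. Shared replicate numbers were checked for pairing: deviations from group means of exEndo 1 and exEndo 2 libraries with the same number correlated at 0.167 to 0.402 in all 4 pairs, a check from the data, as the sources used here do not say that equal numbers mark 1 embryo. The fit with that block changed no call there. The level of 1 marker gene is not reported here.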

Additional observations from a re-analysis of the deposited data

Results flagged for a closer look

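In 51 groups of 4 libraries, the values of 1 gene were compared with the library farthest from the others, and 5 stood apart by Dixon's ratio, where chance gives about 1 in 20. Stmn1 in replicate 1 of exEndo 1 was at 233 TPM with the next library at 152 TPM. Stmn1 in replicate 1 of exEndo 2 was at 179 TPM with the next at 148 TPM. Stmn2 was at 3.90 TPM in exMidgut replicate 3, and Stmn4 at 2.89 TPM in emMidgut replicate 4 and at 3.11 TPM in exMidgut replicate 2, with the other 3 libraries of the group at 0 in each case. The origin difference of Stmn2 changed with gut region by 3.85 log2 units (limma, adjusted p 0.0379).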

How the results depend on the processing

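Of 1378 log2 differences of the 10 genes under alternatives, 1293 kept their side of the threshold, 58 lost a call and 27 gained one. Signs changed in 33 of the 1293, which belong to 8 of 81 results, none of them called. The count of genes called moved as follows. In exGut against emGut it was 2, became 1 with a pseudocount of 0.1, with no filter, without trend and without emMidgut replicates 1 and 3, and 4 with region as a covariate (Stmn2, Nes, Vim and Dpysl3), and ranged from 1 to 3 with a library left out. In exMidgut against emMidgut it was 2, and 0 with no filter and 1 without emMidgut replicates 1 and 3. In exHindgut against emHindgut it was 2, and 1 with a pseudocount of 0.1, with no filter and without trend, and 1 to 2 with a library left out. For the interaction at E9.5 it was 1, and 0 with a pseudocount of 0.1, with no filter, without trend and with a library left out (0 to 1). In exHindgut against exMidgut and in exEndo 1 against exEndo 2 it was 0, and 0 to 1 with a library left out. For origin at E13.5 it was 0, and 1 with FPKM and with median-ratio rescaling, and 0 to 2 with a library left out. For stage it was 2, and 4 without emSI replicates 1 and 2, and 2 to 4 with a library left out. The causes were not tested. Calls over all genes also moved by more than 1.5 times. In exGut against emGut at E9.5 they were 316, and 587 with region as a covariate and 567 with the replicate block. With no filter they were 173 in place of 321 in exMidgut against emMidgut, 223 in place of 378 in exHindgut against emHindgut, and 3 in place of 53 in emColon against emSI. With a library left out they fell to 209, 237 and 7 in these comparisons. For the E9.5 interaction they were 13, and 0 with a pseudocount of 0.1, 8 with no filter, without trend or with the replicate block and 3 to 19 with a library left out. For the E13.5 interaction they were 2, and 0 with a pseudocount of 0.1, 14 with no filter, 6 without trend, 4 with the replicate block and at least 0 with a library left out. Without emMidgut replicates 1 and 3 they were 118 in exMidgut against emMidgut, and without emSI replicates 1 and 2 they were 48 in place of 78 for origin at E13.5.

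Outside the pair of exEndo groups, libraries of the same number had correlations of deviations of -0.17 to 0.196 in exEndo 1 against Epi and at most 0.0798 at later stages. A library correlated best with its own number in 15 of 24 pairs in exGut against emGut. For origin at E13.5 it did so in 13 of 18 pairs. A weak pairing is therefore not excluded. With the replicate block the counts became 0 for the E9.5 interaction (Stmn2, adjusted p 0.0503), 1 for exHindgut against exMidgut (Vim, 0.0321) and 1 for origin at E13.5 (Vim, 0.0152). Dpysl3 was called with it in exGut against emGut (-1.03, adjusted p 0.00445) and in exMidgut against emMidgut (-1.30, adjusted p 0.0228), and Nes lost its call in exGut against YsEndo (adjusted p 0.0593). Depth limits most the genes near 1 TPM, where a value of 0 does not show absence.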
